A study of Mus musculus with 25 samples.

Results

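The 10 genes described here, Ppargc1a, Ppargc1b, Esrra, Tfam, Nrf1, Opa1, Mfn1, Mfn2, Dnm1l and Pink1, govern how many mitochondria a heart cell holds and how these fuse, divide and are cleared. They were chosen by name, and each was measured as the sum of the TPM of its transcripts (TPM is transcript abundance corrected for transcript length and set to a fixed total per library). All 10 were among the 35969 genes listed, and all 10 passed the filter on low values that left 11984 genes to test. Myocardial mRNA came from left ventricular tissue of 25 male mice on a C57BL6/J backcross, with 5 mice in each of 5 groups. The groups were WT on control diet (WT CNTL), littermates with 1 disrupted allele of the lipid peroxide reductase gene Gpx4 on the same diet (GPx4+/- CNTL), both genotypes on a high fat high sucrose diet (WT HFHS, GPx4+/- HFHS), and WT HFHS mice that also drank 80 mM carnosine, a histidyl dipeptide (WT HFHS + Carnosine). Diets began at 8 to 10 weeks of age and lasted 16 weeks, and carnosine was added 7 weeks after the diet began. GPx4+/- mice given HFHS and carnosine were not analysed here. All mice were killed after food restriction and an injection of dextrose or saline. The labels do not say which mouse received which, and the part of this injection in any value was not tested. The Gpx4 allele was lost from every cell type, and the tissue was sequenced in bulk, so that fewer cells of a type and less RNA per cell cannot be told apart.

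Mitochondrial biogenesis is driven by the coactivators PGC-1α (Ppargc1a) and PGC-1β (Ppargc1b), which bind the nuclear receptor ERRα (Esrra) and the nuclear respiratory factor NRF1 (Nrf1) on the promoters of respiratory chain genes and of Tfam. Tfam packages and transcribes the mitochondrial genome. Fusion of the outer membrane requires the mitofusins Mfn1 and Mfn2, and fusion of the inner membrane requires Opa1, which also shapes the cristae. Division is carried out by the dynamin-like GTPase Drp1 (Dnm1l), and Pink1 is the kinase that marks depolarised mitochondria for mitophagy. In the heart, an organ that lives largely on fatty acid oxidation, loss of the PGC-1 coactivators or of both mitofusins leads to cardiomyopathy in mice.

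The libraries were those of heart muscle, with the 9 cardiomyocyte markers detected in every group at a summed level of 43518 to 53567 scaled TPM (TPM after division by a factor per library). Gpx4 followed the labels, at 251 to 383 scaled TPM in the GPx4+/- mice and 591 to 778 in the WT mice, with no overlap. Atrial markers were over 3 times the group median in 5 libraries, namely WT CNTL mouse 3, GPx4+/- CNTL mice 1 and 2, GPx4+/- HFHS mouse 4 and WT HFHS + Carnosine mouse 2, and reached 7432 scaled TPM against medians of 71.9 to 279. GPx4+/- CNTL mouse 2 also held 1085 scaled TPM of hepatocyte markers, against group medians of 3.31 to 16.2. Adipocyte markers, at 15.1 scaled TPM or less, were over 3 times the group median in 4 of the 5 libraries high in atrial markers (not GPx4+/- CNTL mouse 2) and in WT CNTL mouse 1, at 1.92. Transcripts of the mitochondrial genome took 31.3% to 48.7% of all TPM, and each library was rescaled by the median ratio of 11879 genes. The deposited unit keeps no read depth, so the precision of each value rests on the spread among mice alone.

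Alternative exons of Ppargc1a and Opa1 recur in the results, so their sequences, read from GENCODE mouse M21 transcripts, are shown first. Ppargc1a lies on chromosome 5 of GRCm38 (51454250 to 51567726, minus strand) and its annotated transcripts open with one of a pair of coding first exons, which give the protein different starts. The start codon is in capitals. The upstream exon (chr5:51567630-51567665) belongs to Ppargc1a-202 and Ppargc1a-204, and the proximal exon (chr5:51553735-51553782) to Ppargc1a-201, Ppargc1a-203 and Ppargc1a-205.
Ppargc1a upstream first coding exon: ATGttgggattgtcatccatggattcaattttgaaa
Ppargc1a proximal first coding exon: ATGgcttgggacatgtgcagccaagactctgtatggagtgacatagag
Opa1 lies on chromosome 16 (29579334 to 29654884, plus strand) and includes or skips coding exons near its 5′ end. The exon of 54 bases (chr16:29588823-29588876) is in Opa1-201, Opa1-205 and Opa1-208, and that of 111 bases (chr16:29597586-29597696) is in Opa1-202, Opa1-207 and Opa1-208. Each is given in capitals between the neighbouring bases of Opa1-208 in lower case.
Opa1 54-base exon: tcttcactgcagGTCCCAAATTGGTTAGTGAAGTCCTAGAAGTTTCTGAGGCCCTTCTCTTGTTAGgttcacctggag
Opa1 111-base exon: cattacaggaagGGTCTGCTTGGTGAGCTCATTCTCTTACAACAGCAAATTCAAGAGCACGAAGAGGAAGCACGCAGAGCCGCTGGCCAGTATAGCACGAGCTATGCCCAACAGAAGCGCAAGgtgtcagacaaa

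Promoters of 9 of the 10 genes were found in the RefSeq table (GRCm38.p6, 300 bases each, 250 of them before the start), with 13 entries in all. Both strands were searched for the NRF1 motif, for CCGGAAGT, the site of GABP (also called nuclear respiratory factor 2), for TNAAGGTCA, the ERR element, and for TGACGTCA, the cAMP response element, and no matches of different motifs overlapped in these genes. The NRF1 motif was in the promoters of Opa1 and Pink1 and in 4.60% of all 32851 promoters. The GABP letters were in those of Mfn1 and Tfam and in 3.89% of all promoters. None of the entries held the ERR or cAMP letters, which were in 1.28% and 1.79% of all promoters. A match is a description of the letters and not of binding. The windows of Opa1 (chr16:29579250-29579309, plus strand) and Mfn1 (chr3:32529413-32529470, plus strand) are shown because these fusion genes varied together among the mice, with the matched letters in capitals.
Opa1 promoter window: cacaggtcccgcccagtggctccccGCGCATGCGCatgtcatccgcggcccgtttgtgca
Mfn1 promoter window: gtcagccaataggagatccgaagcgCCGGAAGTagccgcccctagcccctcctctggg

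The mitophagy kinase and the mitofusins were the most abundant of the 10 transcripts, and the scarcest were a coactivator and NRF1. Over the 25 mice, Pink1 was highest at a mean of 414 scaled TPM (SD 41.4), followed by Mfn2 at 306 (SD 13.5) and Mfn1 at 175 (SD 15.4). Esrra stood at 91.8 (SD 7.41), Opa1 at 61.1 (SD 4.22), Ppargc1a at 36.9 (SD 7.16), Dnm1l at 32.7 (SD 2.18) and Tfam at 24.8 (SD 2.49). Ppargc1b, at 6.90 (SD 1.11), and Nrf1, at 6.03 (SD 0.744), were lowest. These levels are per transcript length and can be set against each other, and Mfn2, which also tethers mitochondria to the endoplasmic reticulum, exceeded Mfn1 in all 25 mice. All but 2 neighbouring pairs in this order kept their places in every mouse. Ppargc1a was above Dnm1l in 18 of 25 mice, and Ppargc1b was above Nrf1 in 19 of 25.

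The genes differed in how steady they were. Mfn2 had the narrowest spread among mice of a group, with a coefficient of variation of 4.46%, and its highest value was 1.19 times its lowest. Opa1 (5.66%), Dnm1l (5.91%), Mfn1 (8.11%) and Esrra (8.37%) were also steady. Pooled over the groups, the PGC-1 coactivators spread most, at 17.4% for Ppargc1a and 16.3% for Ppargc1b, and the highest value of Ppargc1b was 2.04 times its lowest. Both of these extremes, 10.1 and 4.96 scaled TPM, were in WT HFHS + Carnosine, where Ppargc1b had a coefficient of variation of 29.5%. In WT CNTL that of Ppargc1b was 3.45%, below the 5.65% of Mfn2. PGC-1α is known for its quick response to fasting and to catecholamines, and the part of either in this spread was not tested.

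The genes that no comparison set apart overlapped in all groups. Esrra had group means between 88.2 ± 3.19 (WT HFHS + Carnosine) and 94.3 ± 7.79 scaled TPM (WT HFHS; SD, n = 5), and its lowest mouse, at 72.9, was GPx4+/- CNTL mouse 2, the library with 1085 scaled TPM of hepatocyte markers, which also had the lowest Pink1 (342), Mfn2 (284) and Ppargc1b (5.82) of its group. Without the 7 libraries of high atrial or hepatocyte marker sums, the diet difference of Esrra in GPx4+/- mice moved from -0.028 to -0.16 on the log2 scale, uncalled in both fits, and the part of those markers was not tested. Tfam ran from 23.3 ± 0.884 in WT HFHS to 25.9 ± 3.39 in GPx4+/- CNTL. Both GPx4+/- groups spread more widely for Tfam, with SDs of 3.39, than the WT groups, with 1.37 on CNTL, 0.884 on HFHS and 2.36 on HFHS with carnosine, a contrast that was not tested. Mfn2 stayed between 301 ± 10.9 in GPx4+/- CNTL and 316 ± 17.8 in WT CNTL, and Pink1 between 405 ± 35.5 in GPx4+/- HFHS and 434 ± 40.5 in WT HFHS.

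**Figure D1:**
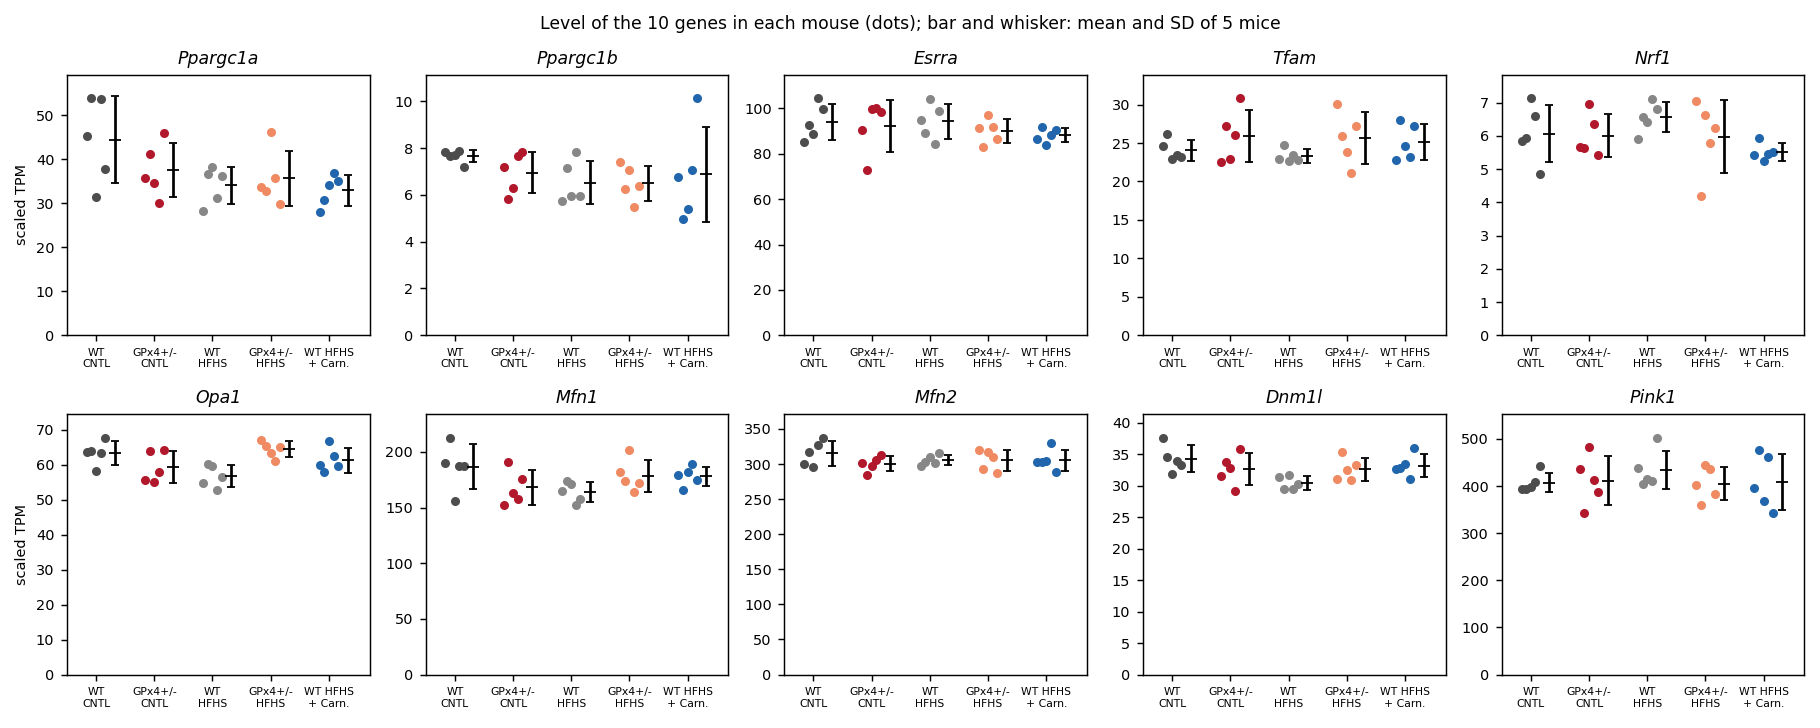
Scaled TPM (y axis, from 0) of each of the 10 genes in the 25 mice by group (x axis), where each dot is 1 mouse and the bar and whisker give the mean and SD of 5 mice. Ranges of the groups overlap in most panels; WT HFHS lies below WT CNTL for Dnm1l and below GPx4+/- HFHS for Opa1.

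Obesogenic diet in WT mice is the first comparison. None of the 10 genes passed an adjusted p of 0.05 from limma (a linear model fitted across all 11984 genes, Benjamini-Hochberg adjustment), where 1.18% of all genes were called. At an unadjusted p under 0.05, 5 of the 10 were lower on HFHS and none was higher, while of all genes 7.56% were lower and 8.95% higher (16.5% in all). These 5 were both PGC-1 coactivators, Opa1, Mfn1 and Dnm1l. The median log2 fold change of the 10 genes was -0.10, and that of all genes tested was 0.00024.

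Ppargc1a measured 45.2, 53.9, 31.3, 53.7 and 37.8 scaled TPM in the 5 WT CNTL mice and 28.2, 36.6, 38.2, 31.2 and 36.2 in the WT HFHS mice. All but WT CNTL mice 3 and 5 exceeded every WT HFHS mouse, and the groups overlapped through that pair. This gave a log2 difference of -0.36 ± 0.15 (SE, n = 5 and 5) with an adjusted p = 0.235 in limma (unadjusted p = 0.0255).

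Ppargc1b measured 7.82, 7.65, 7.69, 7.89 and 7.21 scaled TPM in WT CNTL and 5.75, 7.15, 5.97, 7.83 and 5.95 in WT HFHS. The control mice lay close together, and only WT HFHS mouse 4 reached them. The log2 fold change of Ppargc1b was -0.22 ± 0.093 (SE; adjusted p = 0.237 in limma). Of the other regulators of biogenesis, Esrra differed by 0.0027 on the log2 scale (95% interval -0.17 to 0.17), Tfam by -0.045 (-0.22 to 0.13) and Nrf1 by 0.11 (-0.12 to 0.35). Single mice moved these values. Nrf1 was at 0.041 without WT CNTL mouse 5 and at 0.17 without WT CNTL mouse 3, and Tfam at -0.014 without WT CNTL mouse 2.

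Dnm1l, the division GTPase, had 37.7, 34.7, 31.9, 34.0 and 33.3 scaled TPM in WT CNTL and 31.4, 29.4, 31.7, 29.4 and 30.3 in WT HFHS. Every WT HFHS mouse was below every WT CNTL mouse, which 2.24% of all genes showed, and the gap between the groups was small. The log2 difference was -0.17 ± 0.056 (SE), or -11.0%, with an adjusted p = 0.138 in limma and a two-sided exact permutation p = 0.00794, the smallest that 5 mice against 5 can give.

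Opa1 measured 63.7, 63.9, 58.2, 63.3 and 67.8 scaled TPM in WT CNTL and 54.7, 60.2, 59.6, 52.9 and 56.6 in WT HFHS. WT CNTL mouse 3 fell among the HFHS mice and the others lay above them. The log2 fold change of Opa1 was -0.16 ± 0.054 (SE; adjusted p = 0.154 in limma). Mfn1 showed the same overlap, with 190, 213, 156, 187 and 187 scaled TPM in WT CNTL and 165, 174, 171, 152 and 158 in WT HFHS (log2 difference -0.18 ± 0.076, SE; adjusted p = 0.238 in limma).

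Mfn2 and Pink1 lay nearer to 0. Mfn2 differed by -0.046 on the log2 scale with a 95% interval of -0.14 to 0.046, and Pink1 by 0.088 with an interval of -0.082 to 0.26. WT CNTL mouse 3 was the mouse with 4740 scaled TPM of atrial markers. In it Ppargc1a, Mfn1, Opa1, Dnm1l, Mfn2 (296) and Tfam (22.9) were each the lowest of the group, and Nrf1 (7.14) was the highest. In a fit without the 7 libraries of high atrial or hepatocyte marker sums (WT CNTL mouse 1, high in adipocyte markers alone, was kept), among them that mouse and WT HFHS mouse 4 (15.5 scaled TPM of hepatocyte markers), the log2 fold changes were -0.44 for Ppargc1a, -0.28 for Ppargc1b, -0.22 for Mfn1, -0.18 for Dnm1l and -0.16 for Opa1, with adjusted p between 0.115 and 0.199 from limma. With single mice left out the differences were as small as -0.28 for Ppargc1a and -0.13 for Mfn1 (without WT CNTL mouse 2). For Dnm1l the smallest was -0.13, without WT CNTL mouse 1. Without WT HFHS mouse 1 Ppargc1b was at -0.18, and without WT HFHS mouse 4 Opa1 was at -0.13. Among these genes the highest adjusted p of any alternative ran from 0.306 (Dnm1l) to 0.554 (Ppargc1b) in limma. The summed cardiomyocyte markers spanned 43518 to 50421 scaled TPM in WT HFHS and 47119 to 53567 in WT CNTL. Those of smooth muscle spanned 198 to 634 scaled TPM in WT HFHS and 168 to 214 in WT CNTL, and 4 of 5 mice on the diet lay above every control mouse. Fibroblast markers summed to 363 to 670 against 283 to 538, macrophage markers to 93.6 to 148 against 73.8 to 117, and endothelial markers to 889 to 1055 against 799 to 1161. WT HFHS mouse 4 had the highest smooth muscle, fibroblast and macrophage sums of its group. The part of these markers in the values was not tested.

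In GPx4+/- mice the same diet gave no call among the 10 genes, where 3.34% of all genes were called. At an unadjusted p under 0.05, 1 of the 10 was higher, against 9.2% of all genes, and none was lower, against 9.15%. The higher gene was Opa1, with 55.7, 64.1, 55.0, 57.9 and 64.4 scaled TPM in GPx4+/- CNTL and 67.0, 65.5, 63.3, 61.1 and 65.3 in GPx4+/- HFHS. The groups overlapped, with a log2 difference of 0.12 ± 0.054 (SE; adjusted p = 0.238 in limma). With the TPM as deposited it was 0.012, where the median of all genes shifted by -0.10. Ppargc1a differed by -0.072 (95% interval -0.38 to 0.24), Ppargc1b by -0.089 (-0.28 to 0.10) and Dnm1l by 0.0012 (-0.11 to 0.12). With the TPM as deposited these were -0.18, -0.19 and -0.10. Without GPx4+/- CNTL mouse 5 the difference of Ppargc1a was 0.0039, and without GPx4+/- HFHS mouse 4 that of Ppargc1b was -0.033.

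Over both genotypes, none of the 10 genes was called where 8.33% of all genes were. Ppargc1b came nearest, at a log2 difference of -0.16 ± 0.066 (SE; adjusted p = 0.146 in limma), followed by Dnm1l at -0.083 ± 0.039 (SE; adjusted p = 0.199). Only these 2 had an unadjusted p under 0.05, both lower, against 11.8% of all genes lower at that limit. With the TPM as deposited the difference of Dnm1l was -0.14 (adjusted p = 0.0663 in limma), where the median of all genes shifted by -0.052. The 95% intervals of the 10 genes lay within -0.43 and 0.21 on the log2 scale.

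**Figure D2:**
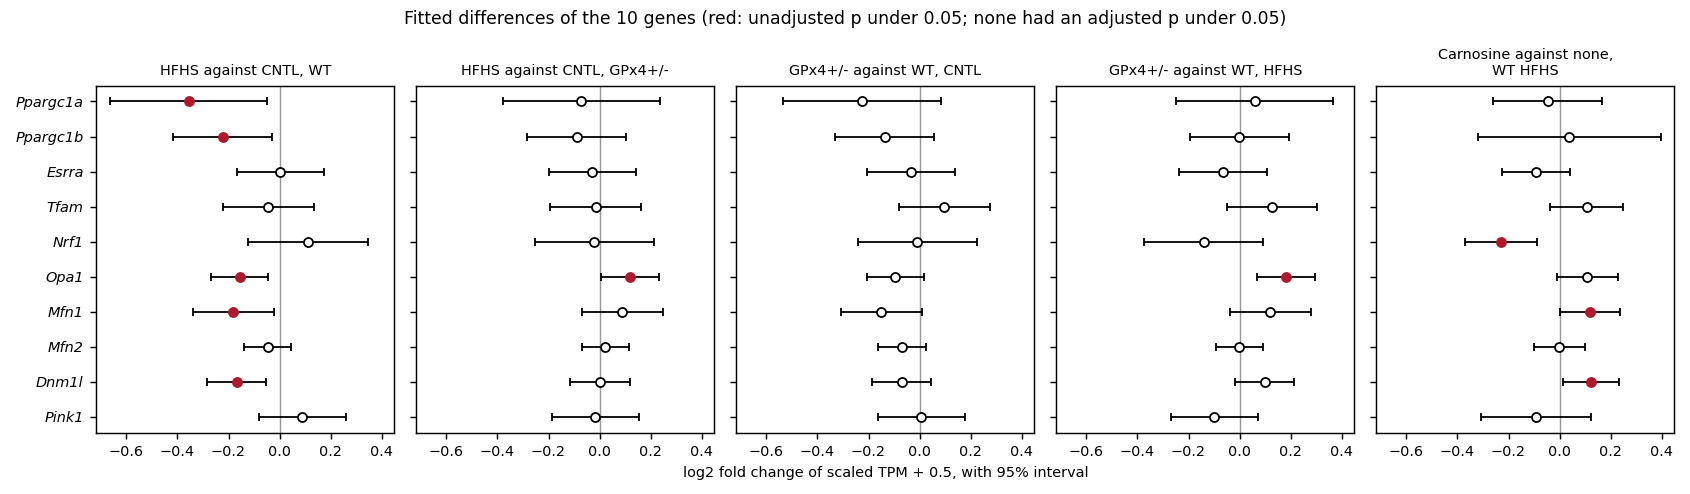
Log2 fold change (x axis) with its 95% interval for each gene (y axis) in 5 comparisons; red marks an unadjusted p under 0.05. For the diet in WT mice 5 genes are red and below 0; for the diet in GPx4+/- mice Opa1 alone is red, and it is above 0.

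Whether the diet acted differently in the 2 genotypes was asked of the interaction. No gene of the 11984 passed an adjusted p of 0.05 (0% called), and 856 (7.14%) had an unadjusted p under 0.05. Of the 10 genes, 3 were at that limit with a positive term, against 3.65% of all genes. Opa1 had an interaction of 0.28 ± 0.076 on the log2 scale (SE; adjusted p = 0.651 in limma), Mfn1 of 0.27 ± 0.11 (SE; adjusted p = 0.681) and Dnm1l of 0.17 ± 0.079 (SE; adjusted p = 0.691). In GPx4+/- mice the diet estimates themselves were 0.12 for Opa1, 0.089 for Mfn1 and 0.0012 for Dnm1l on the log2 scale. With the TPM as deposited, where the median of all genes shifted by -0.11, the interaction terms were 0.17, 0.16 and 0.060, and the estimates in GPx4+/- mice were 0.012, -0.019 and -0.10.

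The effect of the Gpx4 allele on its own was also compared. On CNTL diet none of the 10 genes was called, where 0.0501% of all genes were, and none had an unadjusted p under 0.05, against 6.28% of all genes. The widest difference was that of Ppargc1a, at -0.23 with a 95% interval of -0.53 to 0.082, and it was -0.15 without WT CNTL mouse 2 and -0.37 without the 7 libraries with high marker sums. Over both diets none was called, against 0.0584% of all genes, and none had an unadjusted p under 0.05, against 3.9%. On HFHS, where again 0.0501% of all genes were called, 1 of the 10 had an unadjusted p under 0.05, against 4.57% of all genes.

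That gene was Opa1, whose 61.1 to 67.0 scaled TPM in GPx4+/- HFHS lay wholly above the 52.9 to 60.2 of WT HFHS, an arrangement found for 0.334% of all genes. The log2 difference was 0.18 ± 0.054 (SE), or 13.4% higher, with an adjusted p = 0.978 in limma and a two-sided exact permutation p = 0.00794. Without the 3 libraries of these groups with high atrial or hepatocyte markers it was 0.16. With the TPM as deposited it was 0.11, where the median of all genes shifted by -0.073.

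Carnosine was compared in WT HFHS mice. No gene was called among the 11984 (0%), and 505 had an unadjusted p under 0.05, among them 3 of the 10 genes, against 4.21% of all genes. Nrf1, the transcription factor, had 5.92, 6.56, 6.43, 7.10 and 6.82 scaled TPM in WT HFHS and 5.42, 5.95, 5.24, 5.46 and 5.51 in WT HFHS + Carnosine. The groups met only at carnosine mouse 2 and WT HFHS mouse 1, and the log2 fold change was -0.23 ± 0.064 (SE; adjusted p = 0.947 in limma). Dnm1l differed by 0.12 ± 0.050 (SE; adjusted p = 0.947) and Mfn1 by 0.12 ± 0.053 (SE; adjusted p = 0.947). These comparisons share the WT HFHS mice with the diet comparison. With the TPM as deposited the differences of Dnm1l and Mfn1 with carnosine were 0.051 and 0.047, where the median of all genes shifted by -0.069.

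In the carnosine mice Ppargc1a measured 28.0, 30.6, 34.1, 36.9 and 35.0 scaled TPM, within the range of WT HFHS but for the lowest. Against WT HFHS the log2 fold change was -0.046 with a 95% interval of -0.26 to 0.17. Against WT CNTL it was -0.40 ± 0.14 (SE; adjusted p = 0.251 in limma), in a comparison that called 0.234% of all genes and that shares its control mice with the diet comparison. It was the only one of the 10 genes with an unadjusted p under 0.05 there, against 13.1% of all genes. Ppargc1b ranged from 4.96 to 10.1 scaled TPM among the carnosine mice, a range that covered every other group, and carnosine mouse 5 alone was above all WT CNTL mice.

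The annotated transcripts of the 10 genes numbered 73, of which 39 passed the filter of a mean of 1 scaled TPM. None was called in any of the 9 comparisons when 23328 transcripts were tested singly, which called 0% to 3.04% of all transcripts (0.197% for the diet in WT mice). For the diet in WT mice, 6 of the 39 had an unadjusted p under 0.05, all lower, and 11.4% of all transcripts were at that limit, with 5.36% at it and lower. These were Ppargc1a-203, Ppargc1a-202, Opa1-208, Opa1-201, Opa1-206 and Dnm1l-201. Shares among transcripts are estimates of the quantification tool and are least certain for short or partial models such as Ppargc1a-202, of 488 bases.

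Elsewhere the transcripts met the unadjusted limit at the following rates, each given beside that of all transcripts. The diet gave 3 of 39 in GPx4+/- mice (12.9% of all transcripts, 0.926% called), 2 of them lower. Over both genotypes it gave 7 of 39 (16.9%), of which 6 were lower, against 7.67% of all transcripts. The genotype gave 3 on CNTL, 2 of them lower (5.12%, 0.0129% called), 2 on HFHS, both higher (4.53%, 0.0171% called) and 0 over both diets (3.76%, 0.0257% called). Carnosine gave 3, all higher (4.27%), and carnosine with diet against CNTL gave 4, all lower (9.02%, 0.0171% called). The interaction gave 6 (5.86%), of which 5 had a positive term (3.13% of all transcripts), led by Opa1-201 with a term of 0.82 ± 0.23 (SE; adjusted p = 0.814 in limma).

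Ppargc1a transcripts with the proximal first exon gave 25.4 to 33.1 scaled TPM in WT CNTL and 24.3 to 26.5 in WT HFHS. Those with the upstream first exon gave 5.93 to 21.1 in WT CNTL and 3.94 to 11.7 in WT HFHS. The upstream exon thus carried a median of 31.9% of the gene in WT CNTL, 27.8% in WT HFHS and 25.0% with carnosine, with overlapping ranges. Among WT CNTL mice the minor, upstream class spread more, with an SD of 7.10 scaled TPM against 3.05 for the proximal class. Transcript Ppargc1a-203 had 12.1, 12.8, 9.85, 12.7 and 11.4 scaled TPM in WT CNTL and 8.93, 7.92, 10.5, 8.48 and 9.67 in WT HFHS (log2 difference -0.36 ± 0.11, SE; adjusted p = 0.186 in limma).

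Opa1 transcripts that hold the 54-base exon shown above gave 14.2 to 16.7 scaled TPM in WT CNTL and 9.79 to 12.0 in WT HFHS. Their share of the gene was 22.5% to 26.1% in WT CNTL and 17.9% to 21.3% in WT HFHS. Neither the levels nor the shares of these groups overlapped. Of all single transcripts, 1.58% lay wholly lower in WT HFHS by level and 0.499% by share of their gene. In GPx4+/- mice the shares overlapped, at 17.1% to 28.9% on CNTL and 18.5% to 25.2% on HFHS. With carnosine the share was 20.0% to 26.0%. These transcripts were grouped after their values were seen, and no test was made of the groups. The 111-base exon showed no such separation, with 33.2% to 34.8% in WT CNTL and 31.6% to 41.8% in WT HFHS.

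**Figure D3:**
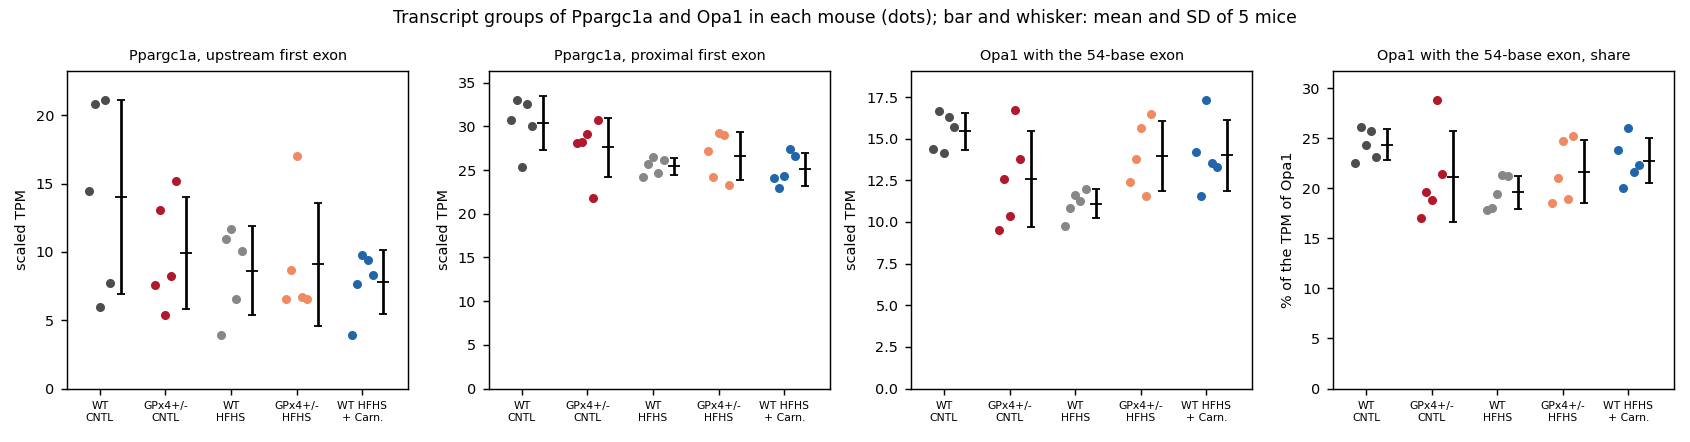
Scaled TPM of Ppargc1a transcripts by first exon and of Opa1 transcripts with the 54-base exon, and the share of that exon in the TPM of Opa1 (y axes, from 0), in each mouse by group; bars and whiskers give mean and SD of 5 mice. The upstream exon of Ppargc1a spreads from 5.93 to 21.1 in WT CNTL, and the Opa1 exon, a group chosen after its values were seen, is lower in all 5 WT HFHS mice than in all 5 WT CNTL mice, as were 1.58% of all transcripts by level.

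Several of the 10 genes varied together among the 25 mice. As a description, the log2 levels of Opa1 and Mfn1, the inner and outer membrane fusion genes, had a Pearson r of 0.74, and 0.66 once group means were removed. Ppargc1a and Mfn1 had 0.67, and 0.72 within groups. Esrra followed Mfn2 (0.58) and Pink1 (0.56). Nrf1 and Pink1 ran against the division gene Dnm1l, with an r of -0.51 and -0.48. All 25 libraries share 1 scaling and differ in the share of TPM from transcripts of the mitochondrial genome, with which Dnm1l had an r of 0.48 and Nrf1 of -0.43. With the log2 of the scaling factor of each library, Ppargc1b had an r of 0.47, Nrf1 of 0.44 and Dnm1l of -0.38. The part of these in the values was not tested.

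The genes most like each member over the 25 mice were found by the same r. Mfn2 was nearest to Wdtc1 (0.94), Tollip and Ap2a2, Pink1 to Pkig (0.88), Rtn2 and Tcea3, and Opa1 to Spag9 (0.84), Wdr7 and Ccny. For Dnm1l they were Rad17 (0.83), Prkaa2 and Ipo7, for Mfn1 Ecpas (0.83), Grsf1 and Mdh1, and for Ppargc1b Xirp1 (0.82), Tpra1 and Tmem39a. Esrra was nearest to Alkbh7 (0.79), Tmem134 and Chchd2, Nrf1 to H2-Aa (0.77), H2-Ab1 and Stk16, Ppargc1a to Olfr784 (0.76), Rab3gap1 and Pdcd2, and Tfam to Pole4 (0.72), Gm10327 and Cxcr4. Prkaa2 encodes a catalytic subunit of AMPK, which phosphorylates PGC-1α, and H2-Aa and H2-Ab1 are antigen presentation genes of immune cells.

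Reads of some members could be shared with other loci. Of the 31-base words in Dnm1l transcripts, 5.95% also occur in other genes, nearly all of them in Gm13719, and 4.46% of those of Pink1 occur in the short overlapping genes Gm27646 and Mir7019. The share was 2.61% or less for the other 8 genes and 0 for Opa1.

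The wider pathways were described with 7 gene lists. All calls in them came with the diet. Of 25 tested targets, 7 rose and 3 fell over both genotypes (adjusted p under 0.05 from limma; of all genes, 4.68% rose and 3.65% fell), and the median of the list was 0.014 on the log2 scale against -0.0024 for all genes. Fabp3, the fatty acid binding protein of heart muscle, rose from 4917 ± 257 scaled TPM (SD, n = 5) in WT CNTL to 5895 ± 407 in WT HFHS and from 4453 ± 104 in GPx4+/- CNTL to 5938 ± 360 in GPx4+/- HFHS. No HFHS mouse of either genotype overlapped a CNTL mouse, as for 0.35% of all genes in that direction, and the log2 fold change was 0.34 ± 0.040 (SE; adjusted p = 4.87e-05 in limma).

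The other targets that rose were Slc25a20, the carnitine carrier (0.30 ± 0.055, SE; adjusted p = 0.00207), the acyl-CoA dehydrogenase Acadm (0.20), Hadha (0.20) and Acadvl (0.18) of long-chain oxidation, both named after their values were seen, and Cpt1b, the muscle carnitine palmitoyltransferase (0.13), with Perm1, a muscle regulator induced by PGC-1 (0.24 ± 0.050, SE; adjusted p = 0.00607). Those that fell were named after their values were seen, namely Slc25a4, the adenine nucleotide carrier (-0.19, adjusted p = 0.0339), Slc2a4, the insulin-sensitive glucose carrier (-0.15, adjusted p = 0.0473), and Ucp3, an inner membrane carrier (-0.62, adjusted p = 0.0476). In WT mice alone 1 of the 25 rose (Fabp3), against 0.659% of all genes, a call lost (0 of 25) in 10 of 19 alternatives, among them those without WT CNTL mouse 1, 2 or 4 or WT HFHS mouse 1, 3 or 5, while array weights called 2. In GPx4+/- mice alone 4 rose (Fabp3, Perm1, Slc25a20 and Acadm), against 2.18% of all genes. The difference between the genotypes passed for none of these. Leaving out the 7 libraries with high atrial or hepatocyte markers lowered the count over both genotypes from 10 to 3 and that in GPx4+/- mice from 4 to 2. With the TPM as deposited, 1 of the 25 was called in GPx4+/- mice and 5 over both genotypes. Over both genotypes 6 were called without WT CNTL mouse 2 or 4, or without GPx4+/- CNTL mouse 1 or 2.

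Among 32 co-regulators and nuclear factors of biogenesis, Perm1 alone was called over both genotypes (8.33% of all genes) and in GPx4+/- mice (3.34%), and Prkaa2 alone in WT mice, where 0.526% of all genes fell. The count over both genotypes ranged from 1 to 3 of 32 in 29 alternatives, with 3 without GPx4+/- CNTL mouse 3 or GPx4+/- HFHS mouse 2 and 2 without WT CNTL mouse 5 or GPx4+/- CNTL mouse 4. Prkaa2 fell from 24.5 ± 0.574 scaled TPM (SD, n = 5) in WT CNTL to 20.8 ± 1.11 in WT HFHS (log2 difference -0.23 ± 0.049, SE; adjusted p = 0.0260 in limma). The groups did not overlap, and 2.24% of all genes lay wholly lower in WT HFHS. The call was lost in 9 of 19 alternatives, among them the fit without the 7 libraries with high marker sums and those without WT CNTL mouse 1, 2 or 4 or WT HFHS mouse 2, 4 or 5, where 0 of the 32 were called. In GPx4+/- mice Prkaa2 measured 23.3 ± 1.13 on CNTL and 23.8 ± 1.51 on HFHS. Its interaction had an adjusted p = 0.651 from limma.

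The partners of the fusion and division genes were read against the 8.33% of all genes called over both genotypes and the 3.34% in GPx4+/- mice. Of 25 genes for fusion, inner membrane shaping and cristae, Dnajc11, a cristae organising subunit, alone was called over both genotypes (0.21 ± 0.064, SE; adjusted p = 0.0462 in limma), a call lost in 17 of 29 alternatives, 14 of which left out a single mouse of any of the 4 groups. The count for that list was 2 without GPx4+/- CNTL mouse 5, WT HFHS mouse 1 or GPx4+/- HFHS mouse 2, and 3 with all 25 mice in one fit. Of 19 fission genes, Akap1, an outer membrane anchor of protein kinase A, which phosphorylates Drp1, rose in GPx4+/- mice from 53.8 ± 4.30 to 67.2 ± 4.04 scaled TPM (SD, n = 5; log2 difference 0.32 ± 0.061, SE; adjusted p = 0.00665 in limma). It was called over both genotypes as well (0.22, adjusted p = 0.00382), where 2 of the 19 were called without WT HFHS mouse 3. With the TPM as deposited Akap1 was called in neither of these comparisons, and Perm1 was not called in GPx4+/- mice, nor was it without the 7 libraries with high marker sums. The groups of GPx4+/- mice did not overlap for Akap1, as for 2.53% of all genes in that direction.

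Of 34 mitophagy genes, 2 rose and 2 fell over both genotypes, where 4.68% of all genes rose and 3.65% fell. Park7, a redox-sensitive protein that acts alongside Pink1, rose (0.20 ± 0.038, SE; adjusted p = 0.00253 in limma), as did Map1lc3a, an autophagosome protein (0.18, adjusted p = 0.00876). Gabarap, of the same protein family, fell (-0.11, adjusted p = 0.0229), and so did Ulk1, the kinase that starts autophagy (-0.19, adjusted p = 0.0277). Park7 was the one gene of this list called in GPx4+/- mice alone (0.28, adjusted p = 0.00732), where 3.34% of all genes were called. Without the 7 libraries with high marker sums, 2 of the 34 were called over both genotypes and 0 in GPx4+/- mice, and with the TPM as deposited 2 over both genotypes. Array weights called 6 over both genotypes, and in GPx4+/- mice 2 were called without GPx4+/- CNTL mouse 3.

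**Figure D4:**
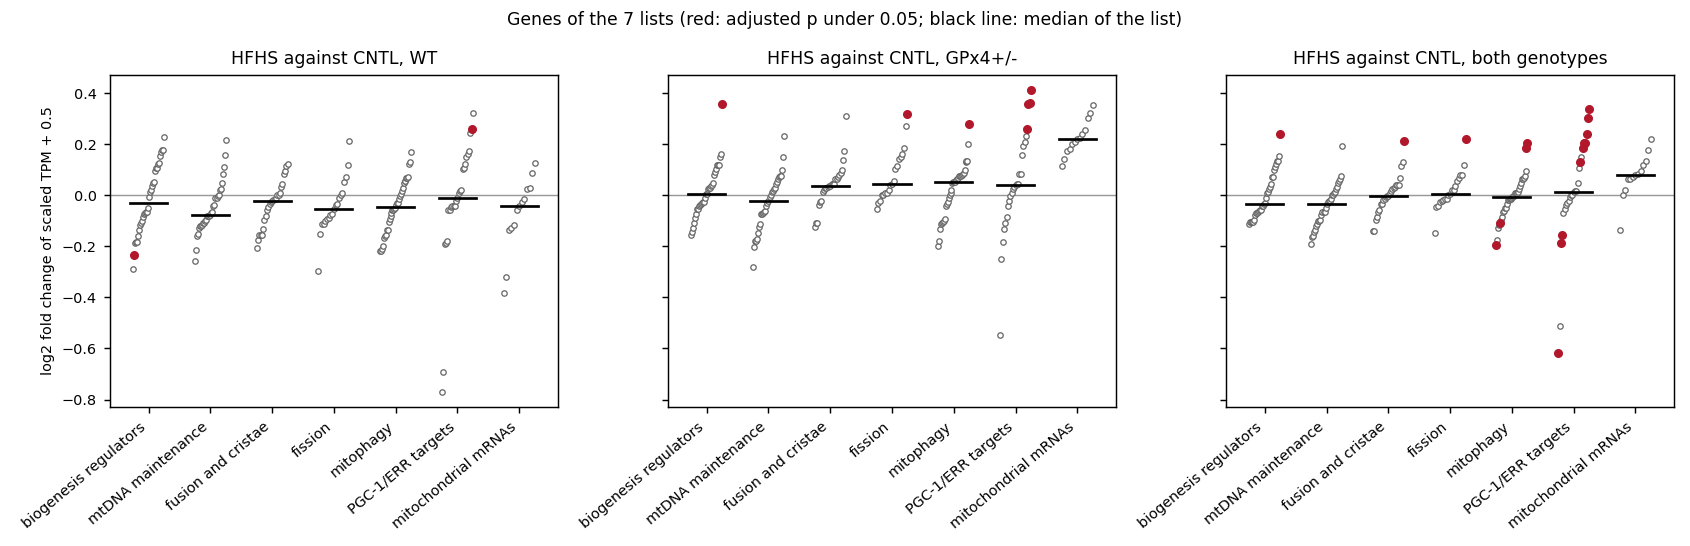
Log2 fold change with the diet (y axis) of each tested gene of the 7 lists (x axis) in WT, in GPx4+/- and over both genotypes; red dots have an adjusted p under 0.05 and black lines are list medians. Over both genotypes 10 red dots are targets of PGC-1 and ERR, 7 above 0 and 3 below.

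Genes that copy and transcribe the mitochondrial genome, the partners of Tfam, showed no call among 31 in any comparison with limma, with 5 at an unadjusted p under 0.05 for the diet over both genotypes, a limit that 24.5% of all genes met. Their median with the diet was -0.076 in WT and -0.024 in GPx4+/- mice. The 13 mRNAs of the mitochondrial genome itself were also uncalled by limma in every comparison. Their median with the diet was -0.043 in WT and 0.22 in GPx4+/- mice, where 3 of 13 had an unadjusted p under 0.05 against 18.3% of all genes, and these mRNAs are cut from shared precursors and are not independent of each other. Where a list had no call in a diet comparison, the genes of smallest p in WT mice were Fastkd1 (-0.21), Chchd3 (-0.17), Mief1 (-0.30), Nbr1 (-0.13) and mt-Cytb (0.13), with adjusted p of 0.0756 to 0.541 from limma. In GPx4+/- mice they were Polg, the mitochondrial DNA polymerase (-0.18), Dnajc11 (0.31) and mt-Nd2 (0.35), and over both genotypes Polg (-0.12) and mt-Cytb (0.18), with adjusted p of 0.0595 to 0.126 from limma. No gene of the 7 lists was called for genotype, for the interaction or for either carnosine comparison. The gene of the biogenesis list with the smallest p for carnosine was Prkaa2, with 20.8 ± 1.11 scaled TPM in WT HFHS and 23.5 ± 1.41 with carnosine (SD, n = 5; log2 difference 0.18 ± 0.057, SE; adjusted p = 0.947 in limma). This comparison shares its WT HFHS mice, in which Prkaa2 was low, with the diet comparison. The genes of smallest p in the other lists were Fastkd1 (0.13), Slc25a46 (0.16), Inf2 (-0.18), Fkbp8 (-0.11), Cycs (0.23) and mt-Nd5 (0.18). Each had an adjusted p = 0.947 in limma.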

How the data were processed

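Poly(A) RNA of 25 hearts was sequenced as stranded libraries. The authors deposited TPM per transcript, and the submitters' processing notes name kallisto 0.43.1, sleuth 0.30.0 and GRCm38. The STAR alignment and DESeq2 tests in the study's methods belong to its own comparisons and were not used. Transcript lengths in the same table (other values deposited by the authors) were not used. Columns were matched to mice by the library names in the header, because the column positions in the labels follow another order; under this match Gpx4 separated the genotypes. Of 119215 transcripts, 116772 were matched to GENCODE mouse M21. TPM were summed per gene, divided by median-ratio factors (0.864 to 1.16), and log2-transformed after adding 0.5, which understates changes of low genes. Genes with a mean of at least 1 were fitted with limma 3.58.1 in R 4.3.3 (mean-variance trend), 4 groups of 20 mice for diet and genotype, or 10 mice for carnosine, a limma fit being used because TPM are not counts. The code was checked on simulated data. Single values were compared by exact permutation. Each library is a separate mouse.

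The members and lists were chosen with earlier results of these data known. Named are all members, Gpx4, list genes called (the 5 of smallest p, or the smallest p where none was, given here for the diet and for carnosine in WT HFHS mice) and the 3 genes most like each member. Also tried were the unscaled TPM, a pseudocount of 0.1, a stricter minimum (5) or none, quantile scaling, single transcripts, replicate number as a block, all mice in one fit, array weights and each mouse left out. Leaving out 7 libraries with atrial, smooth muscle or hepatocyte marker sums over 3 times the group median was chosen after seeing the data.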

Additional observations from a re-analysis of the deposited data

Results flagged for a closer look

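Pink1 in WT CNTL mouse 5 was 444 scaled TPM, while the other 4 mice of that group lay between 394 and 408, so that the gap to the nearest was 0.73 of the range of the group. It was the only one of 50 tests (10 genes in 5 groups of 5 mice) to exceed the Dixon limit of 0.71, and chance flags about 1 group in 20. The value lay within the range of Pink1 in WT HFHS, 404 to 503 scaled TPM.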

How the results depend on the processing

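The number of the 10 genes called was 0 in each of the 9 comparisons and stayed 0 in all of the 210 alternative fits (0 to 0 with each mouse left out in turn). The 16 member differences with an unadjusted p under 0.05 kept their direction and stayed uncalled in all 354 refits. The lowest adjusted p of any of them in any alternative was 0.0663, for Dnm1l over both genotypes with the TPM as deposited. The replicate numbers name different mice, and the labels give no pairing by number. Deviations of same-numbered mice had a mean correlation of -0.0099 (9 of 50 pairs above 0.1, highest 0.23), and 5 of 25 libraries correlated best with their own number. Such a mean over all genes cannot exclude a batch shared by some of the numbers. With the replicate block the members called stayed at 0, while all genes called went from 142 to 68 for the diet in WT and from 28 to 0 for carnosine with diet against CNTL. For the diet in WT, array weights gave 405, the TPM as deposited 38 and no filter 43. No filter gave 235 for the diet in GPx4+/- mice. Carnosine with diet against CNTL gave 141 with all 25 mice in one fit, 124 with array weights, 49 with quantile scaling and 0 with no filter. These counts over all genes, from which the background shares come, also moved with single mice left out, to 36 to 202 for the diet in WT (lowest without WT CNTL mouse 2), 191 to 484 for the diet in GPx4+/- mice (400 with all mice, lowest without GPx4+/- HFHS mouse 5) and 4 to 78 for carnosine with diet against CNTL (lowest without WT CNTL mouse 4, highest without carnosine mouse 4). Without the 7 libraries with high marker sums they were 180 for the diet in GPx4+/- mice and 589 over both genotypes (998 with all mice). Counts of called list genes with the diet moved by more than 1.5 times in 70 of 259 refits, and the cause was not tested. With 5 mice a group, 95% intervals of the members reached at most 0.72 on the log2 scale, and TPM give no counting error.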
